A study of Mus musculus with 31 samples.

Results

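Peaks of open chromatin at the 3' ends of genes were taken as the peaks that the deposited annotation assigns to the class 3' end. Peaks that each held over 0.2% of all counts were set aside first. This left 6683 peaks, 6.37% of the 104979 deposited peaks, against 29413 promoter, 33520 intron, 32221 intergenic and 3127 exon peaks. The 6683 peaks carried the names of 3870 genes or gene pairs and fell into 4803 separate regions, because 2181 of them overlapped another peak. They were 74 to 1785 bp wide, with a median of 349 bp.

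Accessibility was measured by ATAC-seq, in which a transposase inserts adapters into open DNA and the inserted fragments are sequenced and counted. Splenic regulatory T cells (Tregs) were sorted from an RFP-FoxP3 reporter line of C57BL/6 mice. Some mice were injected with 20 µg of mIL-2/CD25, a fusion of mouse IL-2 with its receptor chain CD25 (FP), others with 5 µg of mouse IL-2 (IL2), and controls with 100 µL of PBS. FP, IL2 and PBS had 3 libraries each at 0.75 h and at 16 h, and those at 16 h are called c1 to c3 because their columns give the group but not which sample. FP and PBS had 3 libraries each at 72 h, and there were 4 FP and 3 PBS libraries at 168 h. The mice, controls included, all carried the reporter, and the labels give neither the age of the mice nor the number of mice behind a library. FP and IL2 were given at different amounts, so a difference between them is one between these doses as well.

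A gene's 3' end is where its transcript is cleaved and polyadenylated and where the polymerase leaves the template. Open chromatin there can belong to the end itself, to an enhancer inside or just past the gene, or to a neighbouring gene. IL-2 binds a receptor of 3 chains, of which Tregs carry the CD25 chain at high level, and the receptor activates STAT5, a transcription factor that binds the palindrome TTCNNNGAA as a dimer.

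The sequences below are windows around TTCNNNGAA in 7 of the 3' end peaks that rose with IL2 or FP, followed by a longer stretch of the Tspan14 peak. They are shown because most of the responding peaks held this motif. Each is the + strand of GRCm38, 5′ to 3′, with the match in capitals.
Gm17767, chr1:51509860-51509888: tttgtcagaaTTCTTCGAAatctcatggg
Fcmr, chr1:130879852-130879880: gcccttctagTTCTTAGAActttcattta
Izumo1r, chr9:14892362-14892390: gtaaccacctTTCTAAGAAacagccccag
Cobll1, chr2:65147866-65147894: ccaagtttgaTTCCCAGAActcaattcag
Mbip, chr12:56327620-56327648: gaagcagcggTTCTTGGAActgaggttct
Gm49653, chr16:36471884-36471912: gaacttattgTTCTGAGAAgtctgctaat
Cnksr3, chr10:7118391-7118419: taagtctgagTTCTGAGAAtccattctta
Tspan14, chr14:40905140-40905362: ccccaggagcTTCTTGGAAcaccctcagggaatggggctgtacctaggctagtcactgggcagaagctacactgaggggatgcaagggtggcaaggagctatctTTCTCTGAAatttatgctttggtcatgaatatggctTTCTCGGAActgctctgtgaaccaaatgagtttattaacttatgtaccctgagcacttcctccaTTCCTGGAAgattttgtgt
The Tspan14 stretch covers 223 bp and holds 4 matches; it was chosen after its values were seen. The Fcmr, Mbip, Gm49653 and Cnksr3 peaks hold 2 matches each, of which 1 is printed. None of these 8 peaks overlaps an annotated 3' UTR. Among all 6683 peaks, 923 (13.8%) held the motif, against 13.3% of the other peaks.

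Library totals ran from 7.39 to 59.6 M counts, of which 4.01 to 44.5 M lay outside the 15 peaks set aside. At 168 h, FP replicate 2 (12.3 M) and PBS replicate 1 (7.39 M) stood apart, with mean correlations with the other libraries of 0.755 and 0.706 over the 3' end peaks, against 0.789 to 0.862 for the remaining 29. Each time point has its own date in the sample ids, so time and date cannot be told apart, and every response was taken against PBS of the same time. The promoter peaks of the Treg genes Foxp3 and Il2ra stood at 28.6 and 26.6 CPM per kb (counts scaled to a common library total and divided by peak width), and those of the T cell genes Cd3e and Cd4 at 13.8 and 12.3 CPM per kb. Cd8a had 1 peak, at 4.47 CPM per kb and not at its promoter, while the NK cell gene Ncr1 had none. Cd79a of B cells had a promoter peak at 10.3 CPM per kb. The libraries are bulk samples, so fewer cells with a peak and less signal per cell cannot be told apart. Whether the libraries are of different animals is not stated, and p-values measure only the spread between these samples.

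The class label matched the gene annotation closely. An annotated transcript end lay within 1 kb of 6677 of the 6683 peaks (99.9%), against 26.2% of promoter peaks and no more than 0.224% of exon, intron or intergenic peaks. The end itself lay inside 1079 peaks (16.1%). Centres were downstream of the nearest end in 3704 peaks and upstream in 2976, with the median position at 104 bp and quartiles at -439 and 646 bp, counted as positive past the end. The outermost end of the gene was within 1 kb for 3751 peaks (56.1%), whereas 2926 (43.8%) lay only near the end of a shorter isoform.

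**Figure D1:**
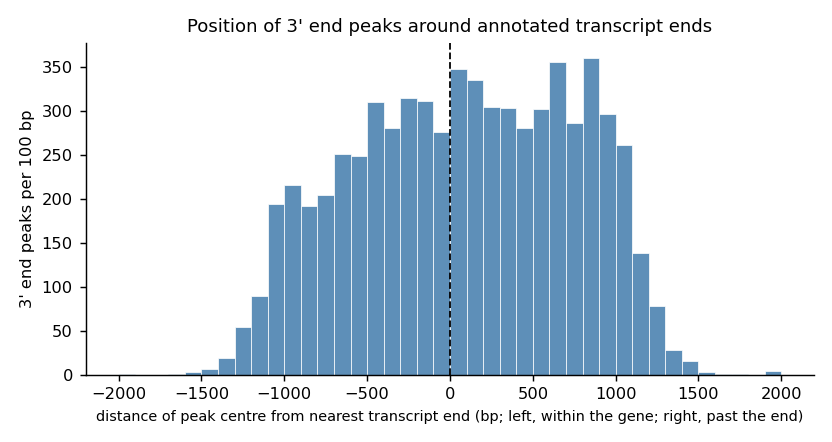
Number of 3' end peaks (vertical axis) by the distance in bp of the peak centre from the nearest annotated transcript end (horizontal axis), in bins of 100 bp. Centres lie on both sides of the end, 2976 upstream and 3704 downstream.

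Most of the peaks lay inside genes. An annotated transcript covered 80.2% of them at least in part, 22.7% overlapped a 3' UTR, and 12.97% lay within 1 kb of a transcription start site, against 99.9% of promoter peaks. Protein-coding genes gave 5026 of the names (75.2%), long intergenic noncoding RNAs 528 (7.90%) and antisense RNAs 270 (4.04%), and 111 peaks had a name that is not in GENCODE M21. The named gene was the gene of the nearest end for 6064 peaks (90.7%). The gene with most peaks was Nkx2-2, a homeobox gene, with 23.

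The base composition of 3' end peaks resembled that of intron peaks more than that of promoters. Their median GC content was 48.6%, against 58.5% in promoter, 49.9% in exon, 46.7% in intron and 46.2% in intergenic peaks. Within the central 300 bp of each peak, TTCNNNGAA was found on either strand in 11.4% of 3' end peaks and 10.5% of all other peaks. The CTCF motif, read by the protein that anchors chromatin loops, was found in 10.8% of them, against 6.44% of all other peaks, 2.72% of promoter, 8.92% of exon, 7.42% of intron and 8.57% of intergenic peaks. The ETS motif CCGGAAG, frequent at promoters (11.54%), was found in 3.68%. The AP-1 motif TGANTCA was found in 10.4% and the RUNX motif TGTGGTT in 10.6%, against 10.0% and 9.55% of all other peaks. The polyadenylation signal AATAAA was sought over the whole peak, whose width varies, on the sense strand of the gene with the nearest transcript end. It was found in 13.9% of 3' end peaks and 13.4% of all other peaks. A motif match is a run of letters and does not show that a factor was bound.

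The limit on abundant peaks removed 2 peaks of the class. These were a peak of Gm10801 (chr2:98664867-98665248, GRCm38), with 0.507% of all counts, and a peak of Gm21738 (chr14:19415699-19415972), with 0.414%. The most abundant peak that stayed was a second Gm21738 peak (chr14:19416097-19416463), with 0.0269% of all counts, followed by a Sfi1 peak with 0.0074%. No peak of the class lay near the limit.

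Peaks at 3' ends were close in level to intron peaks and much less accessible than promoters. Over all 31 libraries their median level was 9.98 CPM per kb (quartiles 6.64 and 16.1), against 19.1 for promoter, 10.4 for exon, 10.1 for intron and 9.08 for intergenic peaks. Within a library, the class median was below that of all other peaks by 1.53 ± 0.523 CPM per kb on average (SD, n = 31), and it was lower in 31 of 31 libraries (two-sided permutation test by sign flips, p = 1e-05, the smallest that 100000 resamples can give). With the abundant peaks kept in the totals the mean difference was -0.906 CPM per kb. It was lower than the promoter median in 31 of 31 libraries and lower than the exon median in 29 of 31. The difference from introns was -0.0896 ± 0.493 CPM per kb, lower in 18 of 31 libraries (permutation p = 0.317). The difference from intergenic peaks was 0.797 ± 1.13 CPM per kb, higher in 24 of 31 libraries (permutation p = 5.8e-04).

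**Figure D2:**
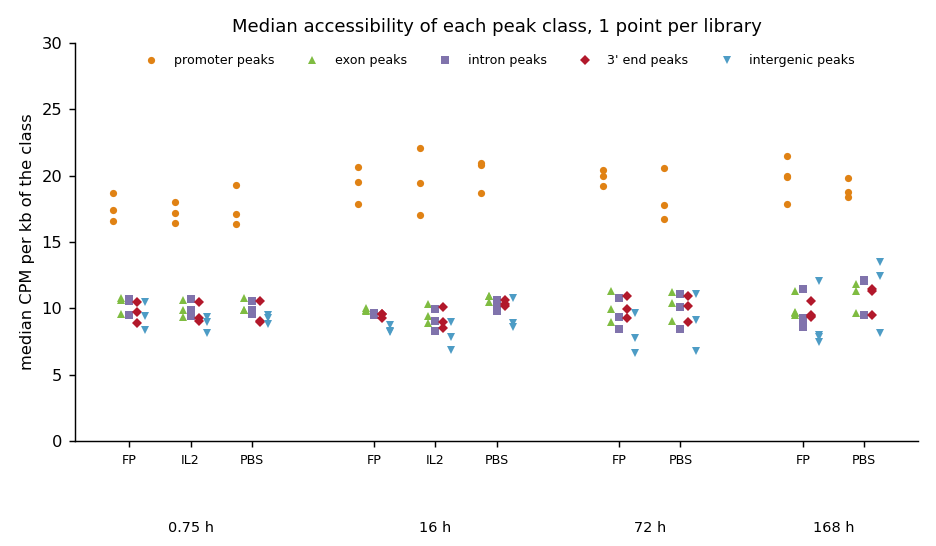
Median CPM per kb of each peak class (vertical axis) in each library, 1 point per library and class, by time and treatment (horizontal axis, FP left of IL2 and PBS). The 3' end medians lie with those of exon, intron and intergenic peaks, and the promoter medians lie above them in each of the 31 libraries.

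The level varied little with the position of a peak in its gene. The 867 peaks near a transcription start site had a median of 10.3 CPM per kb, against 9.93 for the 5816 without one. Peaks that overlapped a 3' UTR had 9.63 CPM per kb, against 10.1 for the rest. Centres upstream of the end had 10.1 CPM per kb and centres downstream 9.85. Peaks of protein-coding genes had 9.82 CPM per kb, those of long intergenic noncoding RNAs 10.5 and those of antisense RNAs 10.7. Peaks with TTCNNNGAA had 11.0 CPM per kb, against 9.80 without it.

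The highest levels were at a few peaks, several of them in genes with near-identical copies, whose reads may be shared between copies. The Gm21738 peak that stayed in averaged 1275 CPM per kb. Next came peaks of Gm13691 (142 CPM per kb), of Sfi1, a centrosomal protein gene (123), and of the pseudogene Gm14125 (119). Below them were peaks near Zfp703, a zinc finger gene (92.2), Gm19585 (87.4), the NOTCH coactivator gene Maml2 (84.6), the mitochondrial leucyl-tRNA synthetase gene Lars2 (83.8), Junos, antisense to Jun (83.6), and the chaperone gene Dnajb12 (76.5). None of these 10 peaks was called in any comparison with PBS. The largest of their changes by size was 0.71 on the log2 scale, a lower level at Lars2 16 h after FP (-0.71 ± 0.31, SE; edgeR quasi-likelihood test, Benjamini-Hochberg adjusted p = 0.879).

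No shift of the class as a whole with treatment passed the test. At 0.75 h the 3' end peaks took 3.81 ± 0.177% of the counts left after the abundant peaks in FP, 3.88 ± 0.196% in IL2 and 3.79 ± 0.261% in PBS (SD, n = 3 each). At 16 h they took 3.68 ± 0.0558% in FP, 3.58 ± 0.209% in IL2 and 3.73 ± 0.125% in PBS. At 72 h the share was 3.81 ± 0.039% in FP and 3.74 ± 0.0651% in PBS, and at 168 h 3.76 ± 0.0598% in FP (n = 4) and 3.84 ± 0.0639% in PBS. Averaged over the 4 times, FP differed from PBS by -0.0111 percentage points (two-sided exact permutation test within times, p = 0.817). IL2 differed by -0.0300 points over its 2 times (exact permutation p = 0.815). At a single time 3 against 3 libraries cannot give a p below 0.1. Counting error alone is small here, since the 95% Wilson interval of a library's share was at most 0.0188 points to either side.

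Spread between libraries of a group depended on how many counts a peak had. Among peaks under 1 CPM the median within-group SD of log2(CPM + 0.5) was 0.536 for 3' end peaks and 0.575 for all other peaks. Above 32 CPM it was 0.218 and 0.212. In each bin between these levels the 3' end peaks had the lower median SD, for example 0.406 against 0.423 from 4 to 8 CPM. By group, the median SD of 3' end peaks was lowest in FP at 72 h (0.290) and highest in PBS at 168 h (0.497). The share of 3' end peaks with at least 10 counts ran from 63.5% in PBS replicate 1 at 168 h to 96.5%.

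The first comparison was that of IL2 with PBS at 0.75 h. With IL2, 40 peaks rose, lying in 28 regions, and 1 fell, of 6399 3' end peaks tested (edgeR quasi-likelihood test, Benjamini-Hochberg adjustment over all 100143 tested peaks, threshold 0.05). The 40 peaks are 0.625% of those tested, and over all tested peaks 0.471% rose and 0.00899% fell. By class, 0.159% of promoter, 0.464% of exon, 0.801% of intron and 0.391% of intergenic peaks rose, so the 3' end share lay between those of exons and introns. Unadjusted p was under 0.05 for 6.50% of the 3' end peaks and 5.77% of all peaks, and the median log2 fold change was -0.00 for the class and -0.04 for all peaks. The groups did not overlap at any of the 41 called peaks, as was also the case for 11.9% of all tested 3' end peaks and 11.3% of all tested peaks.

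Among the 40 rises were genes of lymphocyte surface proteins. In normalised CPM (CPM scaled by the TMM factor of the library), the intronic peak 526 bp from the outermost end of Fcmr, which encodes the receptor for the constant part of IgM, had 11.9, 9.54 and 15.3 in IL2 libraries, against 0.538, 3.48 and 1.82 in PBS libraries. Each IL2 library was above each PBS library, and the log2 fold change was 2.67 ± 0.50 (SE; adjusted p = 0.0162). The peak of Izumo1r, which encodes folate receptor 4, a surface protein abundant on Tregs, had 5.72, 4.04 and 7.39 CPM in IL2 and 0.807, 1.19 and 0.826 CPM in PBS (log2 fold change 2.60 ± 0.52, adjusted p = 0.0273). It lies in an intron, 635 bp past the end of a short isoform and 6460 bp from the outermost end of the gene. The call at Fcmr was lost without IL2 replicates 1 or 3 or PBS replicates 1 or 3 (adjusted p from 0.061 to 0.107), and that at Izumo1r was lost without each library but IL2 replicate 2 and FP replicates 2 and 3 (0.0501 to 0.162).

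The largest rise was at Gm17767, a long intergenic noncoding RNA gene (chr1:51509601-51510070). Its peak had 14.1, 10.0 and 10.6 CPM in FP libraries, 19.5, 25.3 and 32.3 in IL2 libraries and 3.36, 4.16 and 0.991 in PBS libraries at 0.75 h. The PBS libraries were the lowest and the IL2 libraries the highest, with no overlap between the groups, and the log2 fold change of IL2 was 3.17 ± 0.40 (adjusted p = 0.00128). The peak past the end of Tspan14, which encodes a tetraspanin (chr14:40904865-40905582, 863 bp from the outermost end), had 16.3, 8.22 and 15.2 CPM in IL2 and 2.15, 1.95 and 3.22 CPM in PBS (2.44 ± 0.42, adjusted p = 0.00925). The intronic Cobll1 peak (chr2:65147402-65148056) had 22.2, 11.3 and 15.3 CPM in IL2 and 3.83, 1.95 and 2.31 CPM in PBS (2.58 ± 0.37, adjusted p = 0.00297). These groups did not overlap either. The calls at Gm17767 and Cobll1 held in each fit that left out 1 library, and that at Tspan14 was lost without IL2 replicates 1 or 3 or PBS replicate 1 (adjusted p from 0.0593 to 0.0743).

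Genes of lipid, nucleotide and mitochondrial metabolism also had rises, chosen for description here after the values were seen. Acsl1, which encodes a long-chain acyl-CoA synthetase, had 4 overlapping peaks that rose by 1.72 to 2.22 on the log2 scale. In the one named by the rule, IL2 libraries had 9.55, 14.7 and 16.6 CPM and PBS libraries 2.83, 2.97 and 3.22 CPM (2.18 ± 0.36, adjusted p = 0.00714; 0.0571 without IL2 replicate 3 and 0.0563 without PBS replicate 1). The peak of Slc25a16, which encodes a mitochondrial carrier, had 19.8, 20.6 and 17.6 CPM in IL2 and 2.62, 6.29 and 5.12 CPM in PBS (2.05 ± 0.34, adjusted p = 0.00685). The peak of Enpp1, which encodes an ectonucleotide pyrophosphatase, had 43.4, 42.1 and 39.9 CPM in IL2 and 8.95, 15.2 and 13.9 CPM in PBS (1.72 ± 0.24, adjusted p = 0.00259). Both of these overlap the 3' UTR of their gene, and both calls held without any 1 library. The peak named for Agpat3 and Gm47992, the first of which encodes an acyltransferase of phospholipid synthesis, rose by 2.24 ± 0.47 (adjusted p = 0.0382) and lost it in 8 of the 9 fits without 1 library (0.0524 to 0.209).

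Signalling and chromatin genes made up a further group of rises, also put together after the values were seen. Nfkbiz, which encodes a nuclear IκB protein that modulates NF-κB, had 2 overlapping peaks past its end. In the more abundant one, IL2 libraries had 25.9, 33.4 and 32.8 CPM and PBS libraries 7.74, 11.7 and 6.60 CPM (1.82 ± 0.31, adjusted p = 0.0081). The peak past the end of Cnksr3, which encodes a scaffold protein of kinase signalling, had 55.5, 57.1 and 55.8 CPM in IL2 and 19.7, 20.1 and 15.1 CPM in PBS (1.62 ± 0.23, adjusted p = 0.0031). The IL2 and PBS libraries were well apart at both genes. Arhgap17, a gene of a GTPase-activating protein, had 61.4, 58.6 and 52.9 CPM in IL2 and 25.4, 19.5 and 32.03 CPM in PBS (1.17 ± 0.24, adjusted p = 0.0334). Kat2b, which encodes a histone acetyltransferase, rose by 2.04 ± 0.34 (adjusted p = 0.00714) and Ncoa7, a nuclear receptor coactivator gene, by 1.68 ± 0.32 (adjusted p = 0.0196). The call at Cnksr3 held without any 1 library, those at Arhgap17 and Ncoa7 were lost without any 1 IL2 or PBS library (adjusted p from 0.0555 to 0.173), and that at Nfkbiz was lost without IL2 replicate 3 or PBS replicates 1 or 3 (0.0525 to 0.0772). That at Kat2b was lost without IL2 replicate 1 (0.0543) or PBS replicate 1 (0.0563).

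Other rises lay at a globin gene and at sequences with copies. The peak at the end of Hbb-bt, an adult beta globin gene of red cells, had 18.2, 13 and 20.1 CPM in FP, 27.1, 19.6 and 31.9 CPM in IL2 and 4.98, 6.12 and 6.52 CPM in PBS. IL2 was above PBS by 2.16 ± 0.29 (adjusted p = 0.00199), and the call held without any 1 library. The 25 peaks of the 10 erythroid marker genes, of which 5 had a peak and Hbb-bs had none, were summed at 0.75 h. The sums were 129 to 217 CPM in FP, 86.5 to 119 CPM in IL2 and 98.0 to 144 CPM in PBS. Hbb-bt itself gave 17 of these 25 peaks, and the part of red cells in its rise was not tested. A stretch inside Muc4, a membrane mucin gene, gave 9 overlapping peaks that rose by 1.47 to 1.51 and count as 1 region. Peaks past the ends of the T cell receptor variable segments Trav15d-2-dv6d-2 and Trav15n-2 rose by 2.36 ± 0.46 and 2.27 ± 0.36 (adjusted p = 0.0223 and adjusted p = 0.00581). These segments have near-identical copies, so which copy the reads came from is uncertain, and their calls were lost in 5 and 1 of the 9 fits without 1 library (0.0544 to 0.152, and 0.051 without PBS replicate 1). Further rises were at Gm44148, whose nearest end is that of Usp18, Gm49653, Gm35986, Gm11822, Gm44730, Cep128, Tecpr1 and the antisense pair 4932438H23Rik and 4931406G06Rik.

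With the replicate number as a block, which matches same-numbered IL2 and PBS libraries at this time, 72 3' end peaks rose and 3 fell. All 41 calls of the fit without the block were among these 75. Both fits use the same libraries, so this overlap is not separate support. The share of all peaks called with the block is not given here, so the count does not single out 3' end peaks.

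The single fall was in an intron of Ica1l. Its peak had 26.6, 25.04 and 26.4 CPM in FP, 17.4, 24.4 and 25.9 CPM in IL2 and 49.98, 42.8 and 43.4 CPM in PBS at 0.75 h. The PBS libraries were above all others, and IL2 differed from PBS by -1.01 ± 0.22 (adjusted p = 0.0452). This call was lost in 8 of the 9 fits that left out 1 library (adjusted p from 0.0694 to 0.285). The count of 41 itself moved with single libraries. It was 26 without FP replicate 1, 16, 25 and 14 without IL2 replicates 1, 2 and 3, 12 without PBS replicate 1 and 16 without PBS replicate 3.

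**Figure D3:**
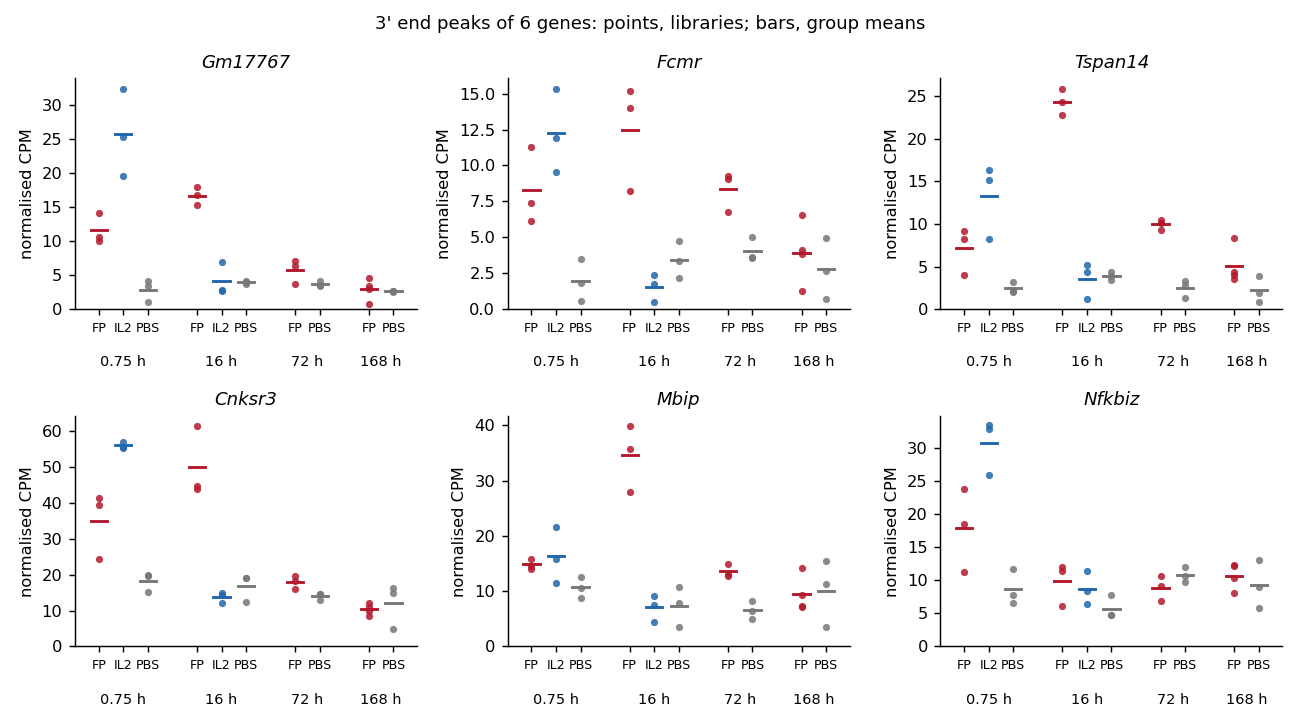
Normalised CPM (vertical axes, from 0) of 3' end peaks of 6 genes in every library, by time and treatment (horizontal axes, FP left of IL2 and PBS); points are libraries and bars group means. IL2 is above PBS at 0.75 h and overlaps it at 16 h in Gm17767, Fcmr, Tspan14 and Cnksr3, FP is above PBS at 16 h in these 4 and in Mbip, and Nfkbiz is highest with IL2 at 0.75 h.

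The next comparison asked the same of FP at 0.75 h. No 3' end peak was called among 6399 tested in the fit without a replicate block, and over all peaks 0.002% rose and none fell (0%). Unadjusted p was under 0.05 for 222 of the 3' end peaks, 3.47%, against 3.12% of all peaks. DESeq2 called 13, and a fit with the replicate number as a block called 6, all higher in FP. For DESeq2 and the block fit the share of all peaks called is not given here. The block fit called the named peaks of Hbb-bt, Gm17767 and Acsl1 (adjusted p under the threshold of 0.05). The groups did not overlap at 8.99% of the 3' end peaks and 8.15% of all peaks. The lowest adjusted p of a named peak was at Hbb-bt, with the values given above (1.54 ± 0.29, adjusted p = 0.124). The FP libraries lay above the PBS libraries there, but the difference did not pass the threshold without the block. The same held for Gm17767 (2.02 ± 0.39, adjusted p = 0.171) and another of the Acsl1 peaks (1.65 ± 0.34, adjusted p = 0.224). Aqp11, which encodes a water channel, was lower in FP by a log2 fold change of -2.93 ± 0.62 (adjusted p = 0.231). FP and IL2 did not differ by the test at any 3' end peak at 0.75 h (0% of all peaks called; 0 of the 3' end peaks called by DESeq2). There 4.00% of the 3' end peaks and 3.64% of all peaks had an unadjusted p under 0.05, and FP and IL2 did not overlap at 10.5% and 9.25%.

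At 16 h after IL2 no 3' end peak was called among 6423 tested, as for all peaks (0%). Unadjusted p was under 0.05 for 248 of them, 3.86%, against 3.73% of all peaks, and DESeq2 called 0. The groups did not overlap at 9.20% of the 3' end peaks and 8.7% of all peaks. The lowest p values were at peaks with few counts, near the olfactory receptor genes Olfr1098 (-3.70 ± 0.82) and Olfr762-ps1 (-4.37 ± 1.15), Glis3, a zinc finger gene (-2.14 ± 0.57), Gm42800 (-2.21 ± 0.61) and the myelin protein gene Pmp22 (-2.08 ± 0.58), all with an adjusted p of 1. The peaks that had risen at 0.75 h gave no call at this time. Gm17767 had 2.66, 2.78 and 6.91 CPM in IL2 and 3.95, 3.69 and 4.16 CPM in PBS. Cnksr3 had 12.2, 15.05 and 14.3 CPM in IL2 and 19.2, 19.1 and 12.5 CPM in PBS. IL2 and PBS overlapped at both.

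At 16 h, FP libraries differed from PBS at 9 of 6423 tested 3' end peaks, in 9 regions. All 9 rose, which is 0.140% of those tested, against 0.119% of all peaks, of which 0.000997% fell. Unadjusted p was under 0.05 for 5.42% of the 3' end peaks and 5.37% of all peaks. By class, 0.0412% of promoter, 0.296% of exon, 0.172% of intron and 0.114% of intergenic peaks rose. The groups did not overlap at any of the 9 peaks, nor at 12.7% of all tested 3' end peaks and 12.1% of all tested peaks. The largest rise was at Tspan14, which had 24.3, 25.8 and 22.8 CPM in FP, 5.14, 4.39 and 1.20 CPM in IL2 and 3.47, 3.92 and 4.41 CPM in PBS. FP was far above the other groups, which overlapped each other, and its log2 fold change over PBS was 2.63 ± 0.40 (adjusted p = 0.00328). The peak 206 bp from the end of Mbip, which encodes an inhibitor that binds the kinase MAP3K12 (chr12:56327183-56328097), had 39.9, 27.9 and 35.8 CPM in FP, 4.502, 9.22 and 7.53 CPM in IL2 and 10.7, 3.58 and 7.83 CPM in PBS (FP over PBS 2.21 ± 0.34, adjusted p = 0.00353). Gm17767 had 16.8, 17.96 and 15.2 CPM in FP and the PBS values given above (2.08 ± 0.38, adjusted p = 0.0194).

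Of the other 6 rises with FP at 16 h, Cnksr3 had 61.5, 44.0 and 44.6 CPM in FP, against 19.2, 19.1 and 12.5 CPM in PBS (1.56 ± 0.24, adjusted p = 0.00334). Arhgap17 had 47.9, 49.97 and 48.5 CPM in FP and 18.6, 24.5 and 19.6 CPM in PBS (1.23 ± 0.21, adjusted p = 0.00865). Ncoa7 had 23.0, 22.3 and 17.4 CPM in FP and 5.58, 6.58 and 5.75 CPM in PBS (1.81 ± 0.30, adjusted p = 0.00796). These 3 peaks had risen with IL2 at 0.75 h as well. The long intergenic noncoding RNA gene Gm47770 had 33.5, 23.7 and 25.3 CPM in FP and 6.39, 9.92 and 3.75 CPM in PBS (2.05 ± 0.33, adjusted p = 0.0042). Gm49653 rose by 1.92 ± 0.38 (adjusted p = 0.0344). The peak named for Hmga2, which encodes an architectural chromatin protein, lies nearest to the end of 1700006J14Rik and rose by 1.69 ± 0.32 (adjusted p = 0.0251). The call at Mbip held without any 1 library; that at Tspan14 was lost without PBS library c1 (0.0509), that at Cnksr3 without FP library c1 (0.0756), and the count of 9 was 2 and 4 without FP libraries c1 and c2 and 4 and 3 without PBS libraries c1 and c3. The call at Gm17767 was lost without any 1 FP or PBS library (0.0611 to 0.149), those at Arhgap17, Gm49653 and Hmga2 in 5 of the 9 fits without 1 library (0.0528 to 0.284), that at Ncoa7 in 4 (0.0764 to 0.0875) and that at Gm47770 in 3 (0.0555 to 0.0718).

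FP was also set directly against IL2 at 16 h. Of 6423 tested 3' end peaks 12 were called, all higher in FP (0.187%, against 0.13% of all peaks; 5.03% of all peaks had an unadjusted p under 0.05). They were the 9 rises over PBS and the peaks of Fcmr, Hbb-bt and Acsl1. Fcmr had 8.23, 15.2 and 14.0 CPM in FP, 0.507, 1.78 and 2.41 CPM in IL2 and 4.76, 2.19 and 3.33 CPM in PBS. FP was above both other groups, which overlapped each other, and FP over IL2 was 2.96 ± 0.48 (adjusted p = 0.00561). Hbb-bt had 20.7, 28.0 and 15.6 CPM in FP, 3.17, 7.50 and 5.36 CPM in IL2 and 7.07, 9.92 and 6.75 CPM in PBS (FP over IL2 2.00 ± 0.34, adjusted p = 0.0103). The erythroid marker peaks summed to 109 to 139 CPM in FP and 73.0 to 128 CPM in IL2 at this time, and their part in the Hbb-bt value was not tested. The calls at Tspan14 (2.78 ± 0.40), Mbip (2.28 ± 0.34), Gm49653 (2.60 ± 0.39) and Cnksr3 (1.85 ± 0.24) held without any 1 library, with adjusted p from 0.00136 to 0.00248 in the full fit. The count of 12 was 6 and 5 without FP libraries c1 and c2 and 6 without IL2 library c1, and the call at Fcmr was lost without FP library c2 (0.0674). The calls at Acsl1 and Hbb-bt were lost in 5 and 4 of the 9 fits without 1 library (0.0529 to 0.282).

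Later FP libraries gave no calls. At 72 h none of 6501 tested 3' end peaks passed the threshold, as for all peaks (0%). Unadjusted p was under 0.05 for 4.72% of 3' end peaks and 5.22% of all peaks. DESeq2 called 10 3' end peaks, and its share over all peaks is not given here. The groups did not overlap at 13.6% of 3' end peaks and 12.1% of all peaks. Tspan14 had 9.23, 10.1 and 10.5 CPM in FP and 1.31, 2.82 and 3.30 CPM in PBS (1.99 ± 0.36), and Arhgap17 had 42.6, 44.4 and 43.6 CPM in FP and 23.0, 22.1 and 26.4 CPM in PBS (0.87 ± 0.15). FP was above PBS in every library at both peaks, with an adjusted p of 0.712 at each. The other peaks of lowest p were at Gm37831 (-1.87 ± 0.29), Fam20a, which encodes a secretory pathway pseudokinase (1.31 ± 0.21), and Tceanc2 (3.26 ± 0.57). At 168 h none of 6534 was called, as for all peaks (0%), with 3.73% of 3' end peaks and 4.51% of all peaks at an unadjusted p under 0.05 and 0 called by DESeq2, and the groups did not overlap at 5.52% of 3' end peaks and 6.14% of all peaks. Lmnb1, which encodes lamin B1, had 22.2, 20.8, 28.1 and 27.0 CPM in FP and 13.2, 13.6 and 14.0 CPM in PBS (0.85 ± 0.21, adjusted p = 0.905). The amino acid transporter gene Slc38a1 (0.95 ± 0.25), Pgghg (1.26 ± 0.33), Gm21738 (0.51 ± 0.12) and the rare Gm12315 (4.00 ± 0.92) had the other lowest p values, with the same adjusted p.

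Whether an effect differed between times was tested in a fit of all 31 libraries. The IL2 effect at 16 h was smaller than that at 0.75 h at 4 of 6642 tested 3' end peaks and larger at none (0.0431% of all peaks smaller; 5.22% at an unadjusted p under 0.05). The difference of the effects was -3.12 ± 0.61 at Gm17767 (adjusted p = 0.0359), -2.63 ± 0.51 at Gm49653 (0.0298), -1.93 ± 0.38 at Cnksr3 (0.0359) and -1.35 ± 0.26 at the pair 4932438H23Rik and 4931406G06Rik (0.0268). The count was 0 without IL2 replicates 1 or 3 or PBS replicates 1 or 3 at 0.75 h, and without IL2 library c1 or PBS library c1 at 16 h. It was 1 or 2 without 6 further libraries, namely IL2 replicate 2 at 0.75 h, IL2 libraries c2 and c3, FP library c3 and PBS library c3 at 16 h, and FP replicate 2 at 72 h. No difference between times in the FP effect was called, from 0.75 to 16 h, from 16 to 72 h or from 72 to 168 h (0, 0 and 0 of 6642 by edgeR; 267, 204 and 99 at an unadjusted p under 0.05). Over all peaks 0%, 0.000957% and 0% were called, and 3.52%, 3.07% and 1.52% had an unadjusted p under 0.05.

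The 40 peaks that rose with IL2 at 0.75 h were followed through the other comparisons. With FP at 16 h, which shares no library with their selection, their median log2 fold change over PBS was 1.13, all 40 were above 0, and 6 were called. All tested 3' end peaks had a median of -0.03 there. With IL2 at 16 h the median was -0.00 and 19 of 40 were above 0. At 72 h FP had a median of 0.43, with 36 of 40 above 0, and at 168 h 0.15, with 29 above 0, and none was called at either time. Counting 1 peak per region leaves 28 peaks, with medians of 1.46 for FP at 16 h, -0.03 for IL2 at 16 h, 0.63 for FP at 72 h and 0.10 for FP at 168 h. FP at 0.75 h had a median of 1.07 for the 40 peaks and none called, but this comparison uses the same PBS libraries as the selection.

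**Figure D4:**
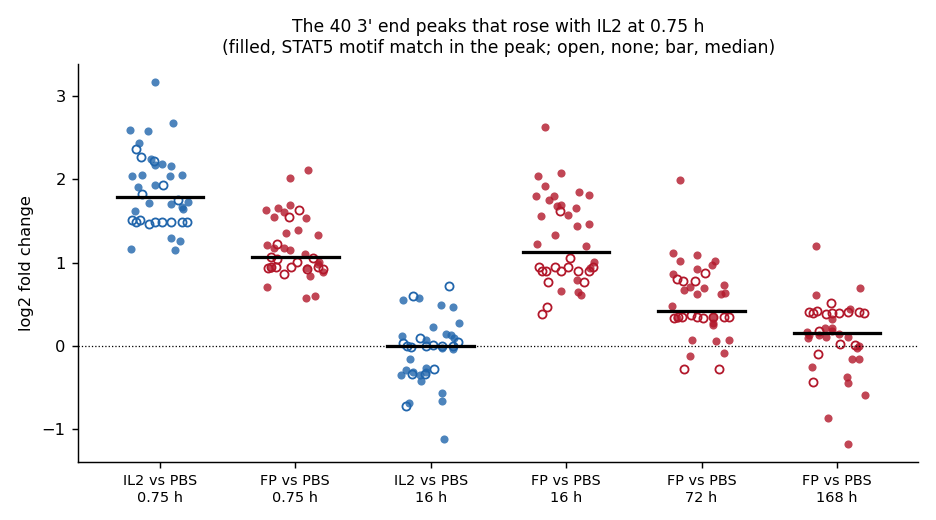
Log2 fold change over same-time PBS (vertical axis) of the 40 3' end peaks that rose with IL2 at 0.75 h, in each comparison (horizontal axis); filled points hold a STAT5 motif match, open points do not, and bars are medians. The medians are 1.79, 1.07, -0.00, 1.13, 0.43 and 0.15 from left to right; the first column is the one that chose the peaks, and the second shares its PBS libraries.

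The peaks that rose were set beside the other 3' end peaks for sequence and place. TTCNNNGAA was found in 25 of the 40 rises with IL2 at 0.75 h (62.5%), against 893 of the 6358 other tested 3' end peaks (14.0%), and by region in 23 of 28 against 714 of 4503. The rises were wider, with a median of 643 bp against 358.5 bp. In windows of equal length, the central 300 bp, 50% of the rises and 11.45% of the others held it. All 9 rises with FP at 16 h held the motif, 6 of them at least at 2 sites, against 14.2% of the others, and 66.7% against 11.6% held it in the central 300 bp. The motif was not particular to rises at 3' ends. In the other peak classes, 378 rises with IL2 at 0.75 h held it and 54 did not. With FP at 16 h, 103 rises of those classes held it and 7 did not. The 40 3' end rises with IL2 were centred upstream of the end in 25%, against 44.7% of the others. They overlapped a 3' UTR in 17.5% against 22.9%, and lay within 1 kb of a start site in 10.0% against 12.9%. An outermost gene end was within 1 kb for 18 of the 40 rises and 3569 of the 6358 others. Among those farther away, the nearest outermost end lay at 59063 bp for Cobll1, 42760 bp for Arhgap17 and 24090 bp for the named Acsl1 peak. It lay at 18770 bp for Ncoa7 and 8051 bp for Kat2b. Among the called peaks without a match were those of Nfkbiz, Muc4 and the Trav15 segments and 1 of the 4 of Acsl1.

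Over all 3' end peaks, those with the motif were also set beside those without it. The 918 tested peaks with it had a median log2 fold change of 0.11 with IL2 at 0.75 h (quartiles -0.26 and 0.63), against -0.02 (-0.36 and 0.30) for the 5481 without it. Peaks of the other classes had medians of 0.12 with the motif and -0.07 without it. With FP at 0.75 h the medians were 0.12 and -0.01, and with FP at 16 h 0.12 and -0.05. With IL2 at 16 h they were -0.02 and -0.01, with FP at 72 h 0.05 and -0.02, and with FP at 168 h -0.06 and -0.02. The comparisons at one time share their PBS libraries.

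**Figure D5:**
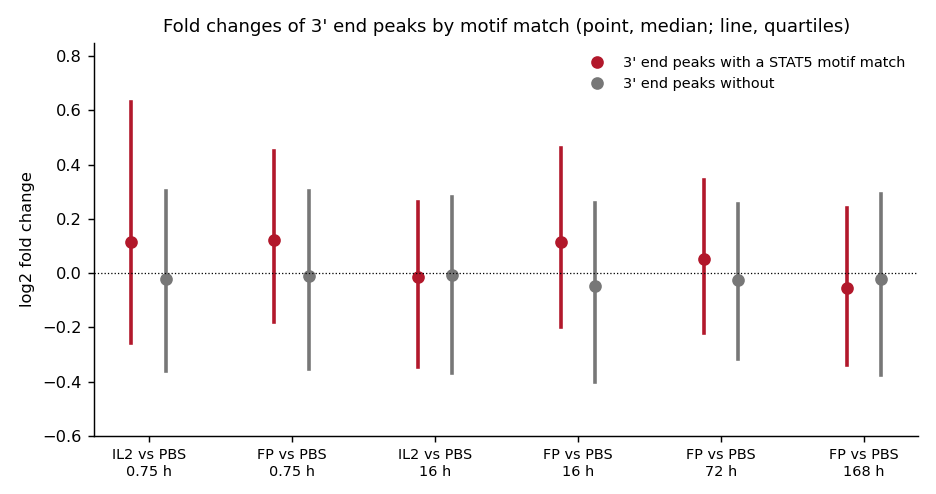
Log2 fold change over same-time PBS (vertical axis; points, medians; lines, quartiles) of 3' end peaks with and without a STAT5 motif match, in each comparison (horizontal axis). The medians with a match are 0.11, 0.12, -0.02, 0.12, 0.05 and -0.06 from left to right, and those without it lie between -0.05 and -0.01.

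Few 3' end peaks in lists of T cell genes were called. With IL2 at 0.75 h, 0.625% of all tested 3' end peaks and 0.471% of all tested peaks rose. At such shares, lists of this size hold few calls or none. Whether a list differs from that share was not tested. Of 31 genes of the IL-2 and STAT5 response, 11 had a 3' end peak, and none of their 14 peaks was called in any comparison with PBS (median log2 fold change 0.18 with IL2 at 0.75 h). Its lowest p there was at Ccnd3, which encodes cyclin D3, with 7.11, 14.0 and 11.4 CPM in IL2 and 5.45, 5.52 and 5.78 CPM in PBS (0.95 ± 0.35, adjusted p = 0.565). Of 28 Treg genes, 10 had 23 peaks, of which 1 rose with IL2 at 0.75 h, at Izumo1r (median 0.17). Ctla4, which encodes an inhibitory receptor of Tregs, had the highest level of these, 36.3 CPM per kb, and did not pass the test (-0.33 ± 0.24). Of 23 genes of NF-κB and TNF receptor signalling, 7 had 12 peaks, of which the 2 overlapping ones of Nfkbiz rose (median 0.84).

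The lists described next had no calls, and 0.48% of all tested peaks were called with IL2 at 0.75 h. Of 29 genes of T cell receptor signalling, 19 had 42 peaks, of which none was called (median 0.01 with IL2 at 0.75 h). Its lowest p was at Nfatc2, which encodes an NFAT transcription factor, with 13.1, 11.6 and 7.99 CPM in IL2 and 1.88, 3.74 and 3.96 CPM in PBS (1.77 ± 0.40, adjusted p = 0.0597). The groups did not overlap, but the difference did not pass the threshold. Of 18 AP-1 and immediate early genes, 6 had a peak and 5 were tested (median 0.21), and of 20 constitutive genes 4 had 13 peaks (median 0.33), with none called. The median of all tested peaks was -0.04 in this comparison. In the other 5 comparisons with PBS no peak of these lists was called. The medians of the lists there ran from -0.42 to 0.45.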

How the data were processed

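The members and gene lists were chosen with earlier results of these data known. The authors mapped ATAC-seq reads to GRCm38 with bwa-mem and kept peaks by IDR between pseudo-replicates, per the series design text, with MACS2 2.1.2 named in the submitters' processing notes. The deposited table holds counts of reads in 104979 peaks for 31 libraries; which counter, duplicate filter and peak merging were used is not stated. One column of the deposited table (FP replicate 1 at 0.75 h), recorded under another unit, also holds counts; lines were split starting at their last field, since gene names hold commas in 9561 of them. Times are those of the sample titles; the protocol text states 0.75 h for each sample.

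Peaks holding over 0.2% of all counts (15 peaks) were set aside before any fit. Each time point was fitted with all of its groups by edgeR 4.0.16 (TMM factors, filterByExpr with a minimum count of 10 and minimum total of 15, quasi-likelihood test), with Benjamini-Hochberg adjustment over all tested peaks and a threshold of 0.05. Differences between times came from a fit of all 31 libraries. In the fits of single time points, residual degrees of freedom were 4 to 6, and the biological coefficient of variation 38.5 to 48.1%. Levels are CPM per kb after the 15 peaks were set aside; a pseudocount of 0.5 was used for the spread. Shares were compared by exact permutation within times, levels by 100000 sign flips. Positions came from GENCODE M21 and sequences from the GRCm38 genome. Counts of replicate pairs differed by more than sampling noise (chi-square per degree of freedom 5.00 to 29.3), so none was treated as a duplicate. The fits were tested on simulated data. Whether replicate numbers of the titles pair libraries was checked by the correlation of deviations from the group means. At 0.75 h the 3 same-numbered IL2 and PBS pairs gave 0.135, 0.315 and 0.111. Differently numbered IL2 and PBS pairs gave -0.184 to 0.0552. These numbers may pair, but 3 libraries per group are too few to settle it. The blocked count is given beside that result. Fold changes, SE and adjusted p at 0.75 h are from the fit without the block unless another fit is named.

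Named peaks were 1 per gene: up to 12 largest called rises and falls per comparison with PBS whose groups did not overlap, the 5 lowest p where fewer were called, the 10 highest levels, and per list the lowest p and highest level; other named peaks were chosen after their values were seen. Alternatives were DESeq2 1.42.0, other size factors, no filter, abundant peaks kept, only the groups compared, a replicate block, library total as covariate, peaks without a nearby start site, merged regions, and each library left out. The covariate, and leaving out both 168 h libraries that stand apart, were chosen after seeing the data. R 4.3.3 and Python 3.11.15 were used. Intervals cover counting error only. Some genes are not reported here.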

Additional observations from a re-analysis of the deposited data

Results flagged for a closer look

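At 168 h, FP replicate 2 lay far from the other 3 FP libraries in 4 of 59 measures examined. All 59 are of the same 4 libraries, so they are not independent. Chance flags about 1 in 20 such measures, so a few of 59 would be flagged by chance. The gap to the nearest library took 0.925 of the range for the median level of 3' end peaks, which was 9.47, 10.6, 9.42 and 9.38 CPM per kb in FP replicates 1 to 4. It took 0.916 for Pmp22 (0.486, 15.5, 1.63 and 1.74 CPM), 0.841 for Hmga2 (8.55, 21.8, 6.86 and 6.05 CPM) and 0.871 for Gm13691 (119, 84.7, 115 and 115 CPM). This library had 12.3 M counts; the part of depth in these values was not tested.

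The IL2 effect at 16 h differed from that at 0.75 h, by the test of the difference itself, at Gm49653 (-2.63), the pair 4932438H23Rik and 4931406G06Rik (-1.35), Cnksr3 (-1.93) and Gm17767 (-3.12 on the log2 scale). Each time point has its own date, so time and date cannot be told apart here.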

How the results depend on the processing

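Counts of called 3' end peaks depended on the tool and on single libraries. DESeq2 called 90 with IL2 at 0.75 h (41 by edgeR), 13 with FP at 0.75 h (0), 39 with FP at 16 h (9), 10 with FP at 72 h (0) and 47 for FP over IL2 at 16 h (12). With library total as a covariate the counts were 22 with IL2 at 0.75 h, 5 with FP at 16 h, 12 with FP at 72 h and 5 for FP over IL2 at 16 h. Fitting only FP and PBS at 16 h gave 17. The shares of all peaks called in these alternative fits are not given here. The counts therefore do not show whether 3' end peaks differ from other peaks. The cause of the differences between fits was not tested. Without 1 library the counts ran from 12 to 48 for IL2 at 0.75 h, from 2 to 12 for FP at 16 h, from 5 to 17 for FP over IL2 at 16 h and from 0 to 6 for the change of the IL2 effect between times (4), and were 0 for FP at 0.75 h, 72 h and 168 h and IL2 at 16 h. That last change gave 8 without both 168 h libraries that stand apart. Of the 41, 9 and 12 calls, 10, 1 and 4 held in each of the 17, 16 and 16 alternatives run, and none of the 4 held in all of its 36. Over the named and called peaks, 1153 alternative values kept their side of the threshold, 307 lost the call and 17 gained it.

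At 0.75 h deviations of same-numbered libraries correlated at 0.0121 to 0.349 in all 9 pairs, and those of different numbers at -0.316 to 0.0787; each IL2 and PBS pair was over 0.1, but FP replicate 1 was not paired with IL2 or PBS by that measure (0.0226 and 0.0121). At 72 h and 168 h the same-numbered pairs ran from -0.231 to 0.618 and from -0.295 to 0.519. Differently numbered pairs ran from -0.684 to 0.595 and from -0.587 to 0.425. With 3 same-numbered pairs at each time, this cannot settle whether the numbers pair. A fit with the replicate block called 75 with IL2 and 6 with FP at 0.75 h. It called 0 for FP over IL2 at 0.75 h, and 0 with FP at 72 h and 168 h. No block was possible at 16 h. These are counts of 3' end peaks, and the share of all peaks called with the block is not given here.

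The share of counts in FP against PBS changed sign with abundant peaks kept (0.0422 points, exact permutation p = 0.665); without 1 library it ran from -0.0363 to 0.0260, and for IL2 from -0.0865 to 0.0442. The level relative to all other peaks (-1.53 CPM per kb) was -0.906 with abundant peaks kept in the totals and -1.58 for 3' end peaks with no start site within 1 kb, and ran from -1.56 to -1.49 without 1 library. Scaling by library totals moved the median of 3' end peaks at 16 h to -0.10 with FP and -0.11 with IL2. Libraries of few counts, such as PBS replicate 1 at 168 h, limit what could be detected.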
